A study of Mus musculus with 8 samples.

Results

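The 10 genes described here encode proteins that write, bind or remove methyl marks on lysine 9 of histone H3 (H3K9) beside the G9a complex. They were named by their role, with no threshold on their values: the methyltransferase genes Suv39h1, Suv39h2, Setdb1 and Setdb2, the genes of the SETDB1 partners Trim28 and Atf7ip, the heterochromatin protein 1 (HP1) genes Cbx1, Cbx3 and Cbx5, and the demethylase gene Kdm4c. Earlier results of these data were known when these genes were chosen. All 10 were found among the 47434 genes of the table and all 10 passed the filter on low counts, which 15840 genes passed. The cells were Hepa 1-6, a line from a mouse hepatoma, and their polyadenylated RNA was sequenced in 8 libraries. The genotype was G9a knockout in 4 of them and wild type (WT) in the other 4, and no treatment is named for either group. The labels do not say how many clones the knockout libraries represent or whether replicates were grown as separate cultures. The p-values therefore reflect only how far these samples differ within a group, and that spread may be technical.

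Methylated H3K9 marks silent chromatin. G9a places mono- and dimethyl marks mainly in euchromatin, SUV39H1 and SUV39H2 trimethylate H3K9 at pericentromeric repeats, and SETDB1 does so at retroviral elements and other sites to which the co-repressor TRIM28 (KAP1) is brought by KRAB zinc finger proteins. ATF7IP binds and stabilises SETDB1. The HP1 proteins bind methylated H3K9 through a chromodomain and recruit further silencing factors, and KDM4C removes di- and trimethyl marks from H3K9.

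Library totals were between 58256100 and 75025236 counts. Ehmt2, which encodes G9a, was lower in each knockout library, at 116.7, 116.7, 119.8 and 118.8 CPM (counts per 1e6 counts of the library, scaled with TMM normalization factors) against 345.4, 307.1, 297.6 and 306.6 CPM in the wild type. The log2 fold change was -1.41 ± 0.051 (SE; edgeR, adjusted p = 3.82e-10), so that reduced but not absent Ehmt2 RNA goes with the knockout label. Of 10 hepatocyte marker genes, 4 (Alb, Ttr, Serpina1a and Hnf4a) were without a count in any library, where the limit set by 3 counts is 0.04 to 0.0515 CPM, and 2 rose (Afp and Krt8; Krt8, at 0.15, was not called without knockout replicate 4). Krt8 was at 679.6 to 746.5 CPM in the wild-type libraries. Of 8 fibroblast and stellate cell markers 4 rose and none fell, with Lum at 0 counts, and their summed level was 446.2 to 474.9 per 1e6 counts of the library in the knockout against 106.0 to 117.0 in the wild type. Most of this sum was Col3a1, at 428.6 against 106.8 CPM, while Pdgfra and Pdgfrb had log2 fold changes of -0.60 and -1.85 that were not called. The call of Col1a1 was lost without knockout replicate 2, 3 or 4 or wild-type replicate 1, 3 or 4. The leukocyte gene Ptprc rose from 0.437 to 1.08 CPM. Of 8 endothelial markers 4 were tested and 1 rose, with Emcn at 0 counts. Per 1e6 counts of the library they summed to 5.09 to 6.79 in the knockout against 2.58 to 4.20 in the wild type. Most of this sum was the marker that rose, Cdh5, at 4.32 against 2.28 CPM. Pecam1, Kdr and Vwf had log2 fold changes of 0.16, 0.37 and -0.50 that were not called. The part of these markers in the results below was not tested. In bulk RNA, fewer cells that express a gene and less RNA per cell cannot be told apart.

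The comparison asked whether loss of G9a RNA goes with altered RNA of the rest of the H3K9 machinery. Trim28, Setdb1 and Suv39h1 fell by 13.3% to 18.9%, and none of the 10 genes rose. The 3 HP1 genes, Suv39h2, Setdb2, Atf7ip and Kdm4c did not pass the test. Of all 15840 genes tested, 47.2% were called at an adjusted p under 0.05 (edgeR quasi-likelihood test), 23.6% in the lower and 23.6% in the higher direction, beside 3 of 10 here, all in the lower direction. The median log2 fold change of the 10 genes, knockout minus wild type, was -0.11 against 0.004 over all genes tested, and their median size of change was 0.11 against 0.29. Over the 9977 genes tested at 5 CPM or more, as all 10 are, 58.3% were called, with a median log2 fold change of -0.046 and a median size of 0.22. All 10 log2 fold changes were below 0, but those of Suv39h2, Cbx1, Cbx3 and Kdm4c were above 0 with library sizes alone as the scaling, a scaling that gives 4543 higher and 2742 lower calls in place of 3742 and 3734.

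**Figure D1:**
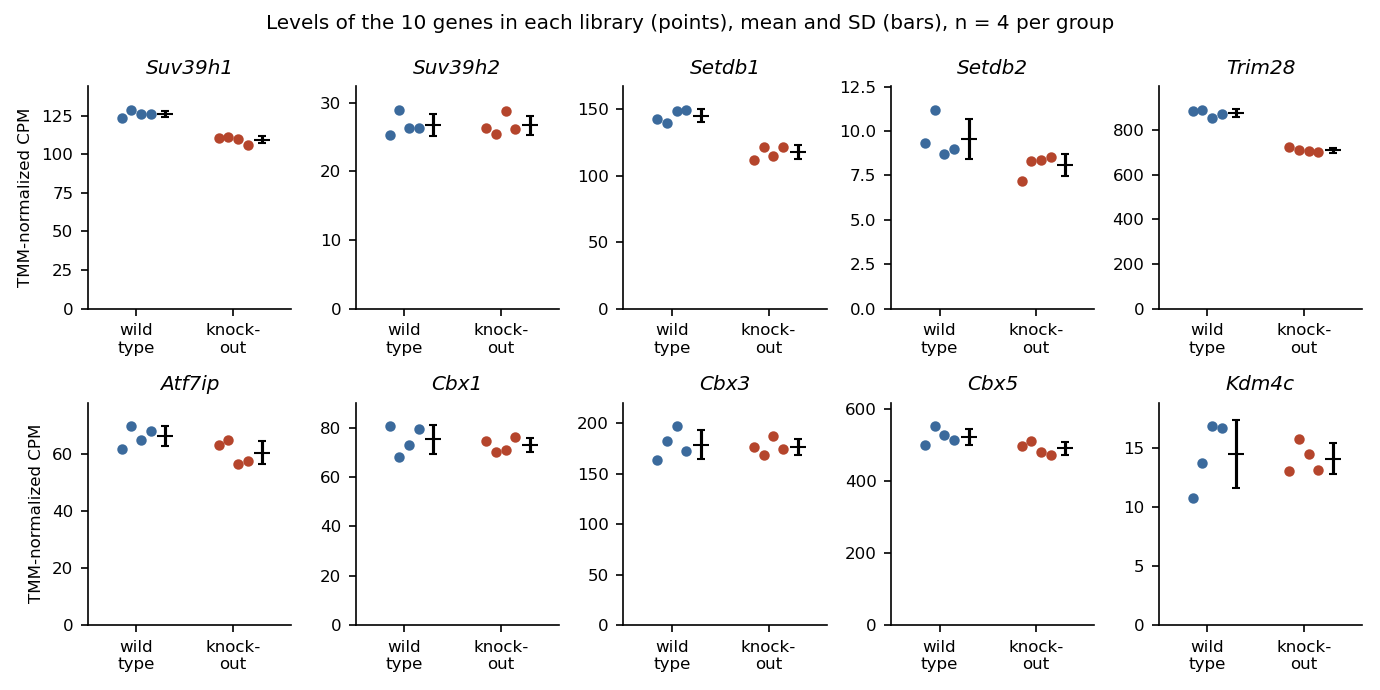
TMM-normalized CPM of each gene in each of the 8 libraries, with mean and SD beside the points (n = 4 per group; each panel has its own axis from 0). The knockout points lie below all wild-type points for Trim28, Setdb1, Suv39h1 and Setdb2 and overlap them for the other 6 genes.

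Trim28 (ENSMUSG00000005566, chromosome 7, 12999114 to 13031035, GRCm38) was the most abundant of the 10 genes. Its levels were 727.0, 712.7, 705.7 and 701.3 CPM in the knockout libraries and 888.5, 892.2, 854.7 and 873.5 CPM in the wild-type libraries. All 4 knockout libraries lay below all 4 wild-type libraries, and the groups did not overlap. On the log2 scale Trim28 changed by -0.30 ± 0.035 (SE, 4 libraries a group; edgeR, adjusted p = 1.14e-05), with a 95% interval of -23.0% to -14.5%. TRIM28 is the scaffold through which KRAB zinc finger proteins reach SETDB1, HP1 and the NuRD complex.

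Setdb1 (ENSMUSG00000015697, chromosome 3, 95323525 to 95357202) encodes the methyltransferase of that complex. It was at 111.4, 121.8, 115.0 and 121.8 CPM in the knockout and at 142.2, 139.6, 148.5 and 149.4 CPM in the wild type, again without overlap. The log2 fold change was -0.30 ± 0.047 (edgeR, adjusted p = 1.56e-04; 95% interval -24.5% to -12.9%). This fall holds for the sum over the transcripts of the gene. When only transcripts annotated as protein-coding were summed, the log2 fold change was -0.054 ± 0.23 (adjusted p = 0.867), with an interval from -0.57 to 0.46 that includes both no change and the value of the full sum.

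The partner gene Atf7ip (ENSMUSG00000030213, chromosome 6, 136506167 to 136610862) was at 63.2, 64.9, 56.6 and 57.7 CPM in the knockout and 62.0, 69.8, 65.1 and 68.3 CPM in the wild type. The groups overlapped, and the log2 fold change of -0.13 ± 0.060 was not called (edgeR, adjusted p = 0.0931). It was called without wild-type replicate 1 (-0.16, adjusted p = 0.0384).

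Setdb2 (ENSMUSG00000071350, chromosome 14, 59402009 to 59440884), a relative of Setdb1, was weakly expressed. The knockout libraries held 7.20, 8.32, 8.37 and 8.54 CPM and the wild-type libraries 9.35, 11.2, 8.73 and 9.0 CPM. The groups did not overlap, as for 43.9% of all genes tested (21.4% with the knockout lower), but the highest knockout and the lowest wild-type library were close. The log2 fold change was -0.24 ± 0.10 and missed the threshold (edgeR, adjusted p = 0.0750; 95% interval -0.46 to -0.015 before adjustment). Of the 10 genes, 4 had groups that did not overlap: Setdb2 and the 3 that were called.

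Of the SUV39H genes, Suv39h1 was the more abundant. Suv39h1 (ENSMUSG00000039231, chromosome X, 8061171 to 8074760) was at 110.4, 111.2, 109.9 and 105.9 CPM in the knockout against 123.4, 128.7, 126.2 and 126.1 CPM in the wild type. The groups did not overlap and the spread within each was small. The log2 fold change was -0.21 ± 0.042 (edgeR, adjusted p = 0.00112; 95% interval -18.5% to -7.69%).

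Suv39h2 (ENSMUSG00000026646, chromosome 2, 3455815 to 3475031) was at 26.4, 25.5, 28.8 and 26.2 CPM in the knockout and 25.3, 29.0, 26.4 and 26.3 CPM in the wild type. The groups overlapped almost fully. The log2 fold change was -0.004 ± 0.065 (edgeR, adjusted p = 0.967), with a 95% interval of -9.52% to 9.89%. Suv39h1 and Suv39h2 act redundantly at pericentromeric heterochromatin. The difference between their changes was not tested.

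The HP1 genes showed no called change. Cbx5 (HP1 alpha; ENSMUSG00000009575, chromosome 15, 103191544 to 103239816) was at 499.4, 511.7, 480.4 and 474.2 CPM in the knockout and 500.8, 552.7, 527.3 and 514.7 CPM in the wild type. Only knockout replicate 2 exceeded a wild-type library. Its log2 fold change was -0.092 ± 0.044 (edgeR, adjusted p = 0.102; 95% interval -12.1% to 0.157%), and it was called without wild-type replicate 1 (-0.12, adjusted p = 0.0389).

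Cbx1 (HP1 beta; ENSMUSG00000018666, chromosome 11, 96789127 to 96808640) held 74.6, 70.2, 70.9 and 76.2 CPM in the knockout and 80.5, 68.1, 73.0 and 79.3 CPM in the wild type. The range of the knockout libraries lay within that of the wild type, and the 95% interval of the change was -11.3% to 6.10% (edgeR, adjusted p = 0.591). Cbx3 (HP1 gamma; ENSMUSG00000029836, chromosome 6, 51470360 to 51483704), the form found also in transcribed genes, held 176.3, 169.1, 187.8 and 174.4 CPM against 163.4, 183.0, 197.1 and 172.5 CPM. Here too the knockout range lay within the wild-type range, with an interval of -9.54% to 7.96% (edgeR, adjusted p = 0.843). Equal levels of HP1 beta or HP1 gamma RNA are not shown by these intervals, which reach to both sides of 0.

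Kdm4c (ENSMUSG00000028397, chromosome 4, 74242497 to 74405860), the demethylase gene of the set, had 13.0, 15.7, 14.5 and 13.1 CPM in the knockout and 10.7, 13.7, 16.8 and 16.7 CPM in the wild type. The wild-type libraries spread more widely than the knockout libraries, which lay inside their range. The log2 fold change was -0.041 ± 0.13 (edgeR, adjusted p = 0.824), and its 95% interval of -19.9% to 17.9% is the widest of the 10 genes on the side of a rise.

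**Figure D2:**
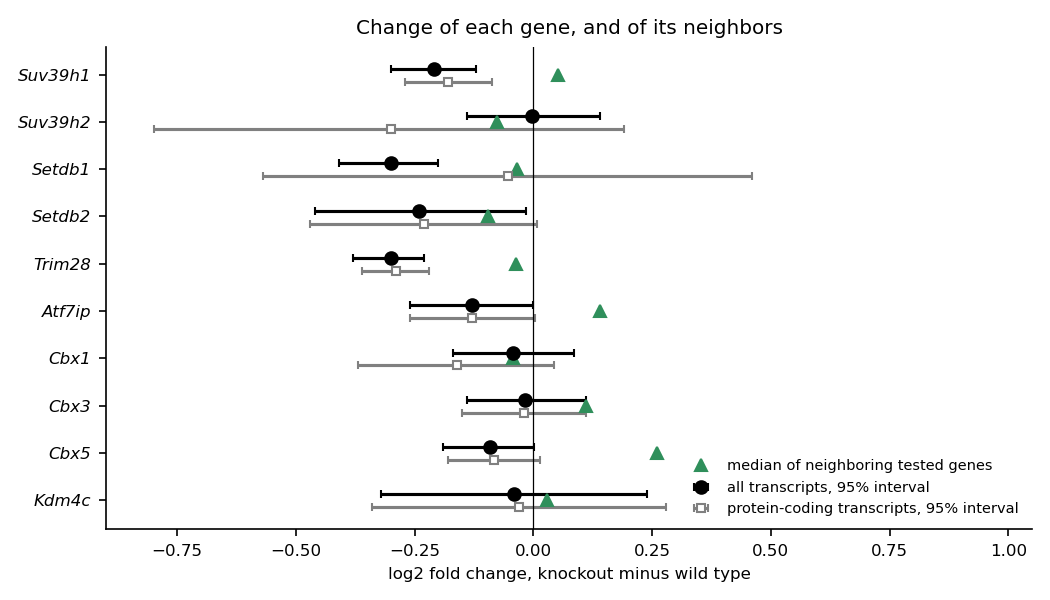
Log2 fold change of each gene, knockout minus wild type, with its 95% interval from the edgeR fit, for all transcripts (black) and for transcripts annotated as protein-coding (grey squares); green triangles give the median of the neighboring tested genes. The intervals of Trim28 and Suv39h1 stay below 0 for both sums, while that of Setdb1 widens to -0.57 to 0.46 for protein-coding transcripts.

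The promoters of the 3 genes that fell, and that of Cbx5 as a gene with no called change in the main fit, are shown so that the shared and unshared elements can be compared. Cbx5 is not a clear case of no change, since it was called lower without wild-type replicate 1 and relative to its neighboring genes. Each run is the stretch of 250 bases before a transcription start, written 5′ to 3′ on the strand of the gene, from RefSeq on GRCm38.p6. Capitals mark matches, on either strand, to 4 motifs. The box known for binding NF-Y was searched as CCAAT. The GC box, known for binding SP1, was searched as GGGCGG. The E2F-type motif was searched as TTTNNCGC and the ETS-type motif as CCGGAAG. The TATA box, spelled TATAAA, was searched too and found in none of the 4 stretches, and no motif here contains another.
Trim28, chr7:13023902-13024151, plus strand: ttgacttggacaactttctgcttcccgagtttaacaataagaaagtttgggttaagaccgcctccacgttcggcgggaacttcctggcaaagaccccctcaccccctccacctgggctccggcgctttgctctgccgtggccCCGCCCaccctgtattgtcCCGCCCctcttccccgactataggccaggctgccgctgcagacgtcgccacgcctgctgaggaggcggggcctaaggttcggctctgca
Setdb1, chr3:95357203-95357452, minus strand: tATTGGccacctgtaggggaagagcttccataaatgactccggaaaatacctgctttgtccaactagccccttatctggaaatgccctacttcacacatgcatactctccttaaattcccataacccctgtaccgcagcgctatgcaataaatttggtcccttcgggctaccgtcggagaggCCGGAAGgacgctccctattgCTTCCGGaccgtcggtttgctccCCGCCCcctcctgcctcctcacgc
Suv39h1, chrX:8074761-8075010, minus strand: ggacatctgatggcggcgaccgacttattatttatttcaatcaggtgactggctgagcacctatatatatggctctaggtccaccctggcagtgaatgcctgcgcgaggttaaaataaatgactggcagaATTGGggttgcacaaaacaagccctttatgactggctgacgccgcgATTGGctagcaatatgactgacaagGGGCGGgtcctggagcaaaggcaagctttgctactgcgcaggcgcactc
Cbx5, chr15:103239853-103240102, minus strand: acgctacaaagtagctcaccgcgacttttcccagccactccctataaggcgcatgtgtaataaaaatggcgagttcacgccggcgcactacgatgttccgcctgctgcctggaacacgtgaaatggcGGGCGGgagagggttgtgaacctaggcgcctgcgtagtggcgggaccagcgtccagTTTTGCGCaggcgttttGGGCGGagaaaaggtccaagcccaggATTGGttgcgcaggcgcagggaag
All 4 hold at least 1 GC box: Trim28 has 2, Setdb1 has 1, Suv39h1 has 1 and Cbx5 has 2. Of 32851 promoter stretches of the same length in the RefSeq table, 32.7% hold a GC box, 33.8% a CCAAT box, 4.28% the E2F-type letters, 6.91% the ETS-type letters and 12.4% TATAAA. The ETS-type letters occur 2 times before Setdb1 and in none of the other 3, and the E2F-type letters occur 1 time before Cbx5. At another RefSeq start of Suv39h1, whose promoter is not printed, the E2F-type letters occur 2 times, so they do not separate the genes that fell from Cbx5. CCAAT matches number 2 before Suv39h1 and 1 each before Setdb1 and Cbx5. CG dinucleotides number 17, 13, 11 and 22 in the order printed, against a median of 6 over all promoter stretches. Such matches describe the letters and are not binding sites. Cbx5 also has another start, not printed, without the E2F-type letters.

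To compare genes with each other, levels were set per length, as TPM (transcripts per 1e6 transcripts) computed from the deposited counts and annotated transcript lengths, without TMM factors. In the wild type the order was Trim28 at 535.8 ± 13.9 TPM (SD, n = 4), Cbx3 at 186.7 ± 14.3, Cbx5 at 117.7 ± 5.35, Suv39h1 at 83.7 ± 0.768, Cbx1 at 72.1 ± 5.79, Setdb1 at 54.8 ± 2.31, Atf7ip at 16.7 ± 0.854, Suv39h2 at 15.1 ± 1.49, Kdm4c at 6.85 ± 1.30 and Setdb2 at 6.43 ± 0.767 TPM. Neighbors in this order overlapped between libraries only for Atf7ip with Suv39h2 and for Kdm4c with Setdb2. In the knockout the first 6 genes kept their order, but Suv39h1 (72.6 to 81.1 TPM) then overlapped Cbx1 (68.5 to 74.7 TPM), and Suv39h2 (17.3 ± 1.33 TPM) stood level with Atf7ip (16.5 ± 2.01 TPM).

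**Figure D3:**
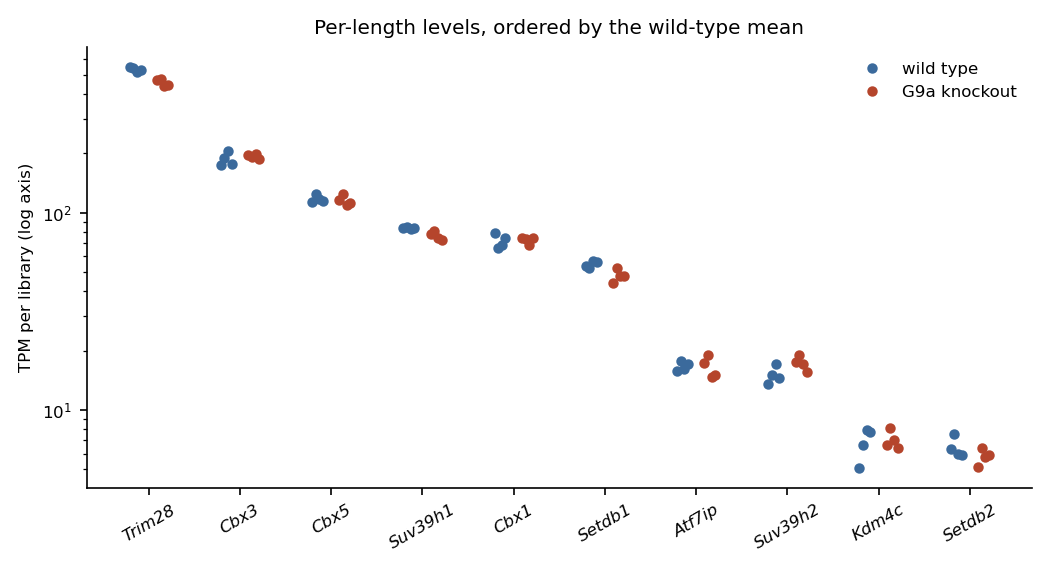
Per-length levels in TPM (log axis) of the 10 genes in each library, ordered by the wild-type mean, with wild type in blue and knockout in red. Trim28 stands highest at 518.4 to 548.7 TPM in the wild type, and Kdm4c and Setdb2 lie lowest with overlapping libraries.

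HP1 gamma made up the largest part of the HP1 RNA. Of the summed TPM of the 3 HP1 genes, Cbx3 held 49.5% ± 2.17 in the wild type and 50.7% ± 1.47 in the knockout, Cbx5 31.3% ± 1.19 and 30.3% ± 1.21, and Cbx1 19.2% ± 2.08 and 19.0% ± 0.785. The sum was 376.6 ± 12.4 TPM in the wild type and 382.0 ± 8.38 TPM in the knockout. Neither the composition nor the sum differed by more than the spread between libraries. Suv39h1 held 84.7% ± 1.35 of the SUV39H sum in the wild type (82.9% to 86.0%) and 81.6% ± 0.510 in the knockout (81.1% to 82.3%), with no overlap; part of this per-length share depends on which Suv39h2 transcript the counts were given to. Setdb1 held 89.5% ± 1.49 and 89.2% ± 0.236 of the SETDB sum.

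Transcript counts were examined next, since a gene can keep its sum and change its isoforms. None of the 8 genes with at least 2 tested transcripts passed the test of transcript usage (edgeR diffSpliceDGE, adjusted p between 0.457 for Suv39h2 and 1.000 for Cbx1), against 2.65% of 7504 genes called. Trim28, Cbx5 and Kdm4c were carried by a single protein-coding transcript, with mean shares of 99.3%, 99.4% and 99.3% of their counts in the knockout and 99.4%, 99.3% and 99.2% in the wild type. Setdb2 and Atf7ip had a leading transcript at 97.9% ± 0.922 and 97.8% ± 0.353 in the wild type.

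For 3 genes much of the sum lay on transcripts not annotated as protein-coding. Setdb1-204, a retained-intron transcript, held 62.4% ± 9.79 of the Setdb1 counts in the wild type and 55.2% ± 14.5 in the knockout. Its estimated counts were 5929, 6365, 4920 and 6089 in the wild-type and 5791, 4950, 2345 and 5250 in the knockout libraries. The protein-coding Setdb1 transcripts together had 2756, 2803, 5298 and 3275 counts in the wild type and 2737, 3396, 4445 and 3408 in the knockout, so the libraries with the fewest retained-intron counts had the most protein-coding counts. Over the 8 libraries the protein-coding share of Setdb1 counts ran from 30.4% to 65.0%.

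Cbx1-204, annotated as a target of nonsense-mediated decay, held 79.5% ± 2.06 of the Cbx1 counts in the wild type and 81.2% ± 1.33 in the knockout. For the protein-coding Cbx1 transcripts alone the log2 fold change was -0.16 ± 0.093 (edgeR, adjusted p = 0.172). Suv39h2-204, also annotated for decay, held between 16.3% and 53.2% of the Suv39h2 counts in the wild type and between 30.4% and 59.1% in the knockout. Protein-coding Suv39h2 transcripts alone gave -0.30 ± 0.22 (adjusted p = 0.282). In Cbx3 a minor protein-coding form, Cbx3-204, ranged from 0% to 20.6% in the wild type and from 0.571% to 29.2% in the knockout.

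**Figure D4:**
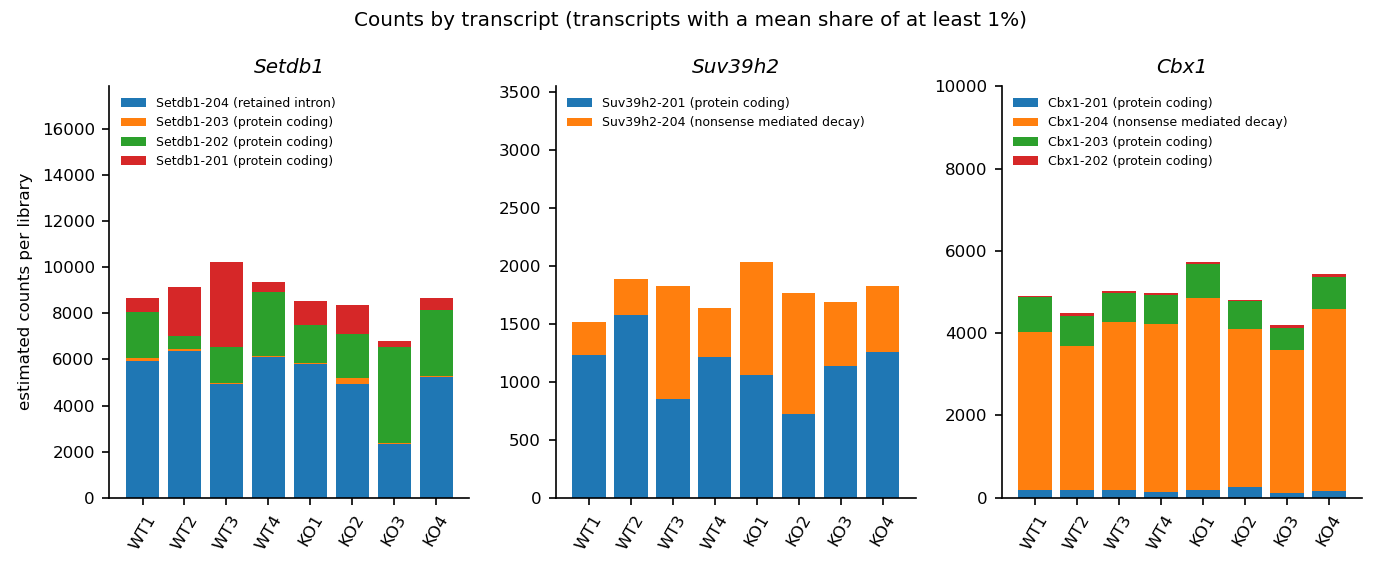
Estimated counts per library (bars, not normalized) of the transcripts of Setdb1, Suv39h2 and Cbx1 that hold a mean share of at least 1%, with 4 wild-type libraries on the left and 4 knockout libraries on the right of each panel. The division of Setdb1 and Suv39h2 counts between transcripts varies among libraries of the same group, whereas Cbx1-204 holds most Cbx1 counts in all 8.

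Each gene was also set beside its surroundings on the chromosome. The median log2 fold change of the nearest tested genes, up to 10 on each side, was between -0.096 (Setdb2) and 0.26 (Cbx5). For Trim28, Setdb1 and Suv39h1 it was -0.036, -0.034 and 0.052, and with it taken out the genes stood at -0.27 (adjusted p = 4.13e-05), -0.27 (adjusted p = 4.33e-04) and -0.26 (adjusted p = 2.08e-04). The neighborhood of Cbx5 was raised, with 7 of 18 genes higher and 1 lower. Relative to its neighbor median Cbx5 was at -0.35 (edgeR, adjusted p = 2.46e-05). Atf7ip, whose neighbors had a median of 0.14, was at -0.27 (adjusted p = 0.00241). The median entered each fit as a fixed offset, so the p-values in this paragraph leave out the spread among neighbors. The quartiles of the neighbors were 0.057 and 0.50 for Cbx5 and -0.16 and 0.73 for Atf7ip.

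Cbx3 and Cbx5 each start close to a gene that runs the other way, and these partners were picked out after their values were seen. Hnrnpa2b1, an RNA-binding protein gene 466 bases from Cbx3, was at 1070.5 ± 51.2 CPM in the knockout and 1136 ± 32.9 CPM in the wild type (log2 fold change -0.085 ± 0.042, edgeR, adjusted p = 0.118). Hnrnpa1, 616 bases from Cbx5, rose slightly from 1000.3 ± 29.0 to 1079 ± 42.1 CPM (0.11 ± 0.040, adjusted p = 0.0394), while Cbx5 was at -0.092. Some members overlap other annotated genes, and since the use of strand in counting is not given in the sources used here, shared reads cannot be told apart. Suv39h2 shares 8316 bases of gene span with the opposite-strand gene Dclre1c, with 5.42 CPM in the knockout and 7.03 CPM in the wild type (-0.37 ± 0.11 on the log2 scale, edgeR, adjusted p = 0.0126). Setdb1 overlaps Cers2 by 75 bases at their 3′ ends; Cers2 did not pass (-0.052 ± 0.045, adjusted p = 0.375). Zbtb45 lies within the annotated span of Trim28 and did not pass either (-0.021 ± 0.063, adjusted p = 0.815).

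Other genes of H3K9 methylation were counted by list, to be read beside the 23.6% of all genes called lower. The lists here and below were chosen with earlier results of these data known. Most tested genes of these lists reach 5 CPM, and weakly expressed genes are included in the 23.6%. Over the 9977 genes tested at 5 CPM or more, 58.3% were called in either direction, with a median log2 fold change of -0.046. The share of these called lower is not given here. In the G9a complex list 3 of 4 genes fell and none rose (median log2 fold change -0.29), Ehmt2 itself by 1.41, and Ehmt1 (the G9a partner GLP) from 83.1 ± 2.13 to 70.7 ± 3.47 CPM and Wiz (a zinc finger subunit) from 145.8 ± 17.2 to 113.9 ± 9.22 CPM. Among 10 other H3K9 demethylase genes, 7 of 9 tested fell and none rose, and 6 fell with library sizes alone. Kdm7a went from 11.3 ± 1.23 to 5.76 ± 0.513 CPM, Jmjd1c from 135.3 ± 7.62 to 99.5 ± 10.3, Phf8 from 25.1 ± 1.68 to 18.0 ± 1.51 and Kdm4b, the close relative of Kdm4c, from 40.6 ± 2.03 to 32.5 ± 1.81 CPM. These genes were named for having the lowest p among the called genes of the list, so they do not stand for all of it. Kdm3b, Kdm3a and Kdm4a, also called, had log2 fold changes of -0.30, -0.26 and -0.18. Kdm1a and Phf2, not called, were at -0.069 and -0.067. The median of this list was -0.30 on the log2 scale, beside -0.041 for Kdm4c.

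The list of the HUSH complex and MORC proteins, which act with SETDB1 on integrated retroelements and holds Setdb1 and Atf7ip, had 6 of 8 tested genes lower and none higher (median -0.35), and 5 lower with library sizes alone. Morc2a fell from 214.4 ± 3.07 to 118.5 ± 5.78 CPM, Morc3 from 70.3 ± 7.24 to 25.4 ± 2.03, Fam208b (a relative of the HUSH subunit gene Fam208a) from 126.7 ± 11.6 to 77.5 ± 5.48 and Pphln1, a HUSH subunit, from 147.0 ± 10.2 to 111.9 ± 5.84 CPM. Their log2 fold changes were -0.86, -1.47, -0.71 and -0.39, beside -0.30 for Setdb1. They were named for having the lowest p among the called genes of this list, so they do not stand for the whole list. In the same list Mphosph8 was at -0.22 and Fam208a, not called, at -0.18. Differences between genes were not tested. In the PRDM methyltransferase list 3 of 6 fell (Prdm2, Prdm15 and Prdm10, at -0.23, -0.34 and -0.42) and 1 rose (Mecom, 1.61), with a list median of -0.17. Prdm15 was not called relative to its neighbors (-0.15) or with protein-coding transcripts only.

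Of 18 HP1 partners and heterochromatin readers, 11 fell and 1 rose with TMM scaling; with library sizes alone 5 fell and 2 rose. The median was -0.17. Mphosph8, which fell, is counted here and in the HUSH list, and Chd4, not called, here and among the KAP1 cofactors. Chaf1b, a subunit of the chromatin assembly factor whose large subunit binds HP1, fell from 65.0 ± 0.565 to 28.7 ± 2.47 CPM, the HP1-binding factor gene Adnp from 223.6 ± 14.2 to 152.1 ± 7.20 CPM, and Lbr, which tethers HP1 to the nuclear envelope, from 232.2 ± 10.2 to 197.6 ± 4.14 CPM. Lrwd1 rose (0.26 ± 0.050). Adnp lies among neighbors with a median of -0.52, relative to which it was at -0.037 and not called. Lrwd1 lies among neighbors at 0.35, relative to which it was at -0.098. Chaf1b begins at 93883901 on chromosome 16, close to Morc3 of the HUSH and MORC list, which ends at 93876073. Relative to their neighbors Chaf1b was at -1.05 and Morc3 at -1.24. Whether their falls are separate was not tested. Of 15 tested KAP1 zinc finger and cofactor genes 6 fell and 3 rose (median -0.051). Among those that fell were the KRAB zinc finger genes Zfp568 (-0.88 ± 0.062) and Zfp57 (-0.50 ± 0.048). Chd3 of the NuRD complex was at -0.56 ± 0.071 and Trim33, a relative of Trim28, at -0.30 ± 0.061. The 3 that rose were the cofactor genes Trim24 (0.30 ± 0.065), Hdac2 (0.18 ± 0.049) and Mta1 (0.23 ± 0.055).

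The Polycomb branch of the chromobox family, which binds methylated lysine 27 of histone H3, was set beside HP1. Of its 5 genes Cbx6 rose from 176.8 ± 14.3 to 310.9 ± 13.5 CPM and none fell (median -0.11). Cbx7 was called higher at very low levels, with 0.376 ± 0.165 CPM in the knockout against 0.0682 ± 0.0490 CPM in the wild type. The wild-type mean is near the level that 3 counts give. In the Polycomb repressive complex 2 list 4 of 11 fell and 2 rose (median -0.067; 2 and 3 with library sizes alone), with Jarid2 (-0.77 ± 0.071) and Rbbp4 (-0.25 ± 0.043) lower and Phf1 (0.36 ± 0.090) and Mtf2 (0.20 ± 0.053) higher. Relative to their neighbors Phf1 was at 0.14 and not called, and Mtf2 was at -0.44. Of 18 methyltransferase genes for other lysines 12 fell and 2 rose with TMM scaling, and 7 fell and 3 rose with library sizes alone (median -0.26 with TMM); Setd7, Nsd1 and Setd1a were at -0.53, -0.61 and -0.40, and Nsd2 at 0.36 (0.008 relative to its neighbors, not called). Proliferation genes, given because heterochromatin genes are often higher in dividing cells, fell in 10 of 18 cases and rose in 2 (median -0.13); 4 fell with library sizes alone. Top2a was at -0.28. Pcna at -0.56, Tyms at 0.44 and Mcm7 at 0.23 were at -0.10, 0.091 and -0.021 relative to their neighbors, and none of these 3 was then called; the part of proliferation in the changes of Trim28, Setdb1 and Suv39h1 was not tested.

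**Figure D5:**
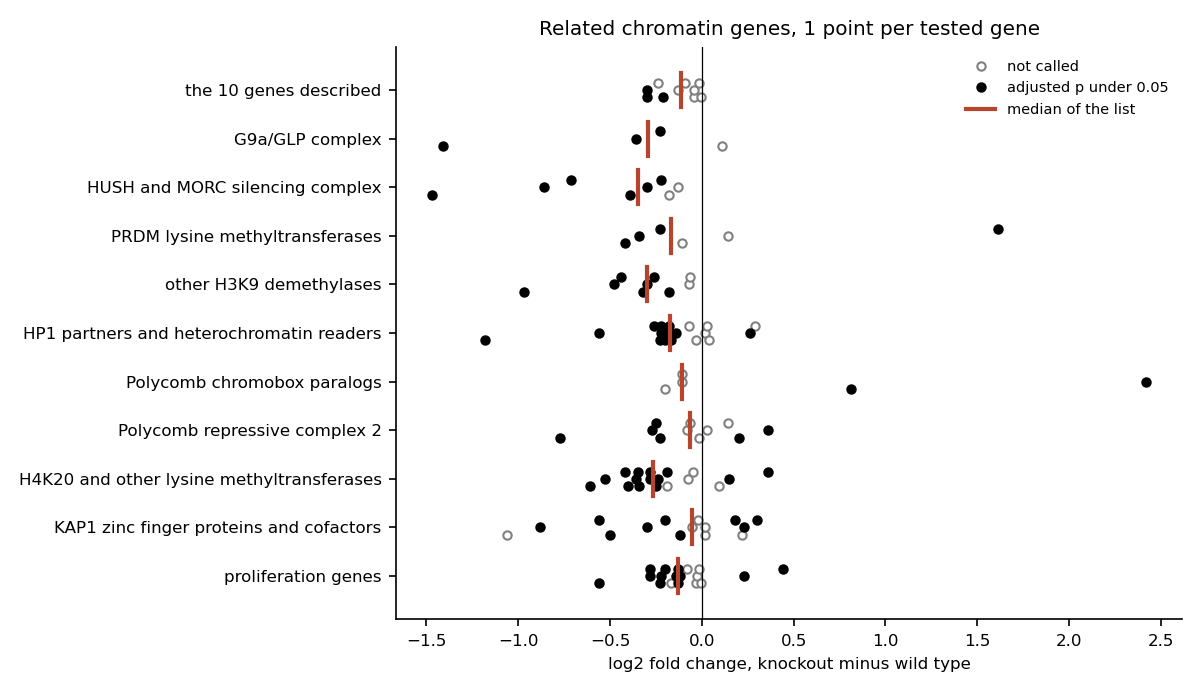
Log2 fold change, knockout minus wild type, of each tested gene of the lists (1 point per gene; filled where the adjusted p was under 0.05; red bar, median of the list). The 10 genes described lie between -0.30 and -0.004, a narrower spread than that of the HUSH and MORC list, which reaches -1.47.

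Trim28 had the lowest p of the 10 genes. Over the 8 libraries its log2 CPM was most alike in pattern to Lef1 (Pearson r = 0.9959), Psmd2 (r = 0.9955) and Slc4a11 (r = 0.9953) among 9971 genes whose mean reached 5 CPM. All 3 were lower in the knockout (log2 fold changes of -1.08, -0.15 and -1.08). The correlations span both groups and describe these 8 libraries.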

How the data were processed

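Poly-A RNA of 8 Hepa 1-6 libraries was sequenced after TRIzol extraction and SMARTer library preparation, per the labels' protocols. FastQC, Trimmomatic, HISAT2 and GRCm38.p6 appear, per the submitters' processing notes, without version or role. How counts were made, and whether strand was used, is not given in the sources used here. Whole-number estimated counts per transcript were deposited, not normalized by the authors as far as the values show. Of 115220 transcripts, 114332 (99.23%) matched GENCODE mouse release 21 (GRCm38) and were summed to 47434 genes, although the design had assumed a table per gene; the rest held 0.148% to 0.17% of the counts of a library. All 8 value columns belong to the 8 samples. The counts were whole, so rounding changed nothing.

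Groups were compared with the quasi-likelihood test of edgeR 4.0.16 (R 4.3.3; TMM, filterByExpr, genotype as the only term, two-sided, Benjamini-Hochberg adjustment over all genes tested). "Rose", "fell" and "called" mean an adjusted p under 0.05. SE is the size of the log2 fold change over the square root of F. Transcript usage was tested with diffSpliceDGE. The code was tested on simulated data, where the usage test made more false calls than its threshold allows. A floor of 3 counts, and every interval given, covers the error that its model holds, and, without molecular identifiers, reads from PCR copies count as if independent. Alternatives were DESeq2 1.42.0, limma-voom (limma 3.58.1), 3 other scalings, 2 other filters, a replicate block, a test against 1.5-fold, protein-coding transcripts only, the median of neighboring genes as an offset, and each library left out. The Simes form of the usage test was added after seeing the data. Named genes were the 10 members, Ehmt2, up to 4 called genes of lowest p per list (2 of lowest p where none was called), overlapping genes, and the 3 genes most like the member of lowest p; the divergent partners of Cbx3 and Cbx5 were named after their values were seen. The members and the 14 lists were chosen with earlier results of these data known. Of the immune marker list only Ptprc is reported here. Promoters were matched by symbol, and all 10 members matched.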

Additional observations from a re-analysis of the deposited data

Results flagged for a closer look

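Among the 110 sets of 4 libraries checked (1 gene in 1 group), 7 held a library whose gap to its nearest other library, as a share of the range of the set, exceeded Dixon's 95% critical value; chance alone flags about 1 in 20. Of the 10 genes described, this touched Setdb2, where knockout replicate 1 was at 7.20 CPM and the others at 8.32 to 8.54 CPM. Without it the log2 fold change of Setdb2 was -0.18 in place of -0.24 and was again not called. The other 6 were list genes. Wiz was at 120.20 CPM in wild-type replicate 3 and at 151.88 to 155.75 CPM in the others. In wild-type replicate 1, Prdm10 was at 15.95 CPM against 13.64 to 13.76, and Mtf2 at 68.86 CPM against 77.04 to 77.89. Knockout replicate 2 stood apart for Morc2a (127.03 CPM against 114.63 to 116.74), Setd1a (177.11 against 151.44 to 154.36) and Phf1 (19.97 against 21.05 to 21.24).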

How the results depend on the processing

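Trim28 and Suv39h1 kept their direction under all 19 alternatives and their call under all but the test against 1.5-fold, with log2 fold changes of -0.32 to -0.22 and -0.26 to -0.13. Setdb1 (-0.32 to -0.054) lost its call under that test and with protein-coding transcripts only. The test against 1.5-fold called 0 of the 10 genes and 14 of the related list genes (in place of 3 and 81), and the number of genes called between knockout and wild type was 1656 in place of 7476 (genes of each background list called ranged from 69 to 78 with 1 library left out). Members called numbered 5 with the neighbor median taken out, when Cbx5 and Atf7ip were added, and 3 to 5 when 1 library was left out, 5 being without wild-type replicate 1; genes called then ranged from 6863 to 7659. Members near 0 changed sign without any call. Suv39h2 was at 0.003 with RLE scaling, 0.054 with upper quartile scaling, 0.076 with library sizes alone, 0.002 with DESeq2, 0.001 with at least 1 read, 0.033 with at least 5 CPM, 0.071 with the neighbor median taken out, and -0.035 to 0.041 when 1 library was left out. Cbx1, Cbx3 and Kdm4c were at 0.014, 0.041 and 0.016 with upper quartile scaling and at 0.036, 0.063 and 0.039 with library sizes alone, and Cbx3 at 0.020 with at least 5 CPM; leaving out 1 library gave -0.060 to 0.031 for Cbx3 and -0.16 to 0.036 for Kdm4c. With the neighbor median taken out Lrwd1 was at -0.098, Mtf2 at -0.44 and Mcm7 at -0.021, and Adnp, Nsd2, Pcna, Tyms, Phf1, Prdm15 and Col1a1 lost their calls. Of 847 values of 45 named list genes under the alternatives, 794 kept direction and call, 50 lost the call and 3 changed sign. Transcript usage of the members gave 0 calls under all alternatives run. Whether replicate numbers pair the libraries cannot be settled from so few libraries. Correlations of deviations between same-numbered libraries were -0.30 to 0.28, and 2 of 4 knockout libraries correlated best with their own number. With a replicate block 3 members and 7255 genes were called. The weakest member, Setdb2, rests on 498 to 737 counts per library.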
